A study of Homo sapiens with 16 samples.

Results

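Integrin and laminin subunits were followed across the stepwise acquisition of gemcitabine resistance in T24 cells, a human bladder cancer cell line. Members were the rows of the expression table whose symbol was ITGA with letters or numbers, ITGB1 to ITGB8, or LAMA, LAMB or LAMC with 1 digit, with antisense genes left out. Described are 37 of the 39007 genes in the table, of which 18 were integrin alpha subunits, 8 were integrin beta subunits and 11 were laminin chains. RNA of 16 libraries had been sequenced, with 4 libraries for each of 4 phases. Parental phase P0 was T24 without selection. The early (P3), intermediate (P7) and late (P15) phases were stages of the GRC1 cell line, which was taken from T24 through repeated rounds of gemcitabine, a nucleoside analogue. All cells shared the same serum-containing medium. The titles of all 16 libraries carry the letters NT, which the paper does not explain. It does not say whether gemcitabine was present when the RNA for sequencing was taken. Because GRC1 is 1 derived line, the phase, the time in culture and the history of that line cannot be told apart. The labels do not say whether the 4 libraries of a phase came from separate cultures, so the p-values measure the spread between these libraries, which may be technical.

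Integrins are cell-surface heterodimers of an alpha and a beta subunit that link the extracellular matrix to the cytoskeleton. Laminins are secreted heterotrimers of an alpha, a beta and a gamma chain, and they form the core of basement membranes. In the normal bladder lining, integrin α6β4 on laminin-332 anchors basal urothelial cells through hemidesmosomes. Which subunits a cell makes decides which matrix it can bind and which laminin trimers it can assemble.

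Expression is given as CPM, the counts of a gene relative to all counts of its library, and the deposited log2(CPM + 1) values are written below as log2 levels. Differences are log2 fold changes on that scale, which understates the change of weakly expressed genes. Total counts estimated from the lowest values were 33.6 to 50.1 M per library, so that 1 count was 0.02 to 0.0297 CPM. The 13249 genes with a mean above 1 CPM were fitted together with limma, and a subunit was called where the Benjamini-Hochberg adjusted p-value was under 0.05 and the level differed at least 2-fold in either direction (a log2 fold change of 1). Levels of different genes are compared only as CPM per kb of annotated exon. The length is that of all annotated exons of a gene merged, such as 14561 bases for ITGB1 and 4647 for LAMB3. Transcripts in use may be shorter, so ratios and shares between genes depend on the annotation. Of the 37 members, 26 passed the filter and were tested, among them 11 of the 18 integrin alpha subunits, 6 of the 8 beta subunits and 9 of the 11 laminin chains. LAMA2 and ITGA7 passed it through their P15 libraries, so their place in counts of subunits higher in P15 follows partly from the filter.

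Epithelial markers were checked against the labelled tissue. KRT8 and KRT18 were high in each phase (mean log2 levels 6.16 to 9.66 and 8.83 to 9.31), whereas CDH1 and the uroplakins UPK1B and UPK3A were at or near 0 in every phase (means of at most 0.07). Of the other uroplakins, UPK2 had means of 0.62 to 0.87, and UPK1A had 0.10 in P0 and 1.57 in P15. The summed level of the 10 epithelial markers was 2076 to 2154 CPM in P0 and 675 to 753 CPM in P15, with KRT7 at 9.90 and 3.64 and KRT19 at 6.43 and 0.02. The leukocyte markers PTPRC and CD3E and the muscle markers were at or near 0 throughout, while CD14, a monocyte marker, had means of 2.96, 1.56, 2.77 and 0.08 from P0 to P15. The 4 endothelial markers summed to 6.0 to 7.949 CPM in P0 and to at most 1.085 CPM in any later library. Of these, CDH5 had means of 2.735, 0.282, 0.0 and 0.178 from P0 to P15, and PECAM1 had 0.948, 0.192, 0.515 and 0.675. The part of the endothelial markers in the subunit values was not tested.

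In late phase P15 against parental phase P0, 13 of the 26 tested subunits were called, beside 23.6% of all 13249 tested genes. Of the subunits 7 were higher and 6 lower, beside 12.1% and 11.4% of all tested genes. ITGA10, ITGB4, LAMA1, ITGA6, ITGB2, LAMA2 and LAMB2 were the higher ones, and ITGB8, ITGA11, ITGB3, LAMA4, LAMA3 and ITGA2 were the lower ones. They made up 8 of the 17 tested integrins and 5 of the 9 tested laminin chains. In bulk RNA, fewer cells that express a gene and less of its RNA per cell cannot be told apart. The median absolute log2 fold change was 1.06 over the tested subunits and 0.51 over all tested genes. By the adjusted p-value alone, 14 subunits rose and 10 fell, beside 45.3% and 40.9% of all tested genes (86.2% in either direction), and only ITGA5 and ITGAE of the tested members did not pass.

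**Figure D1:**
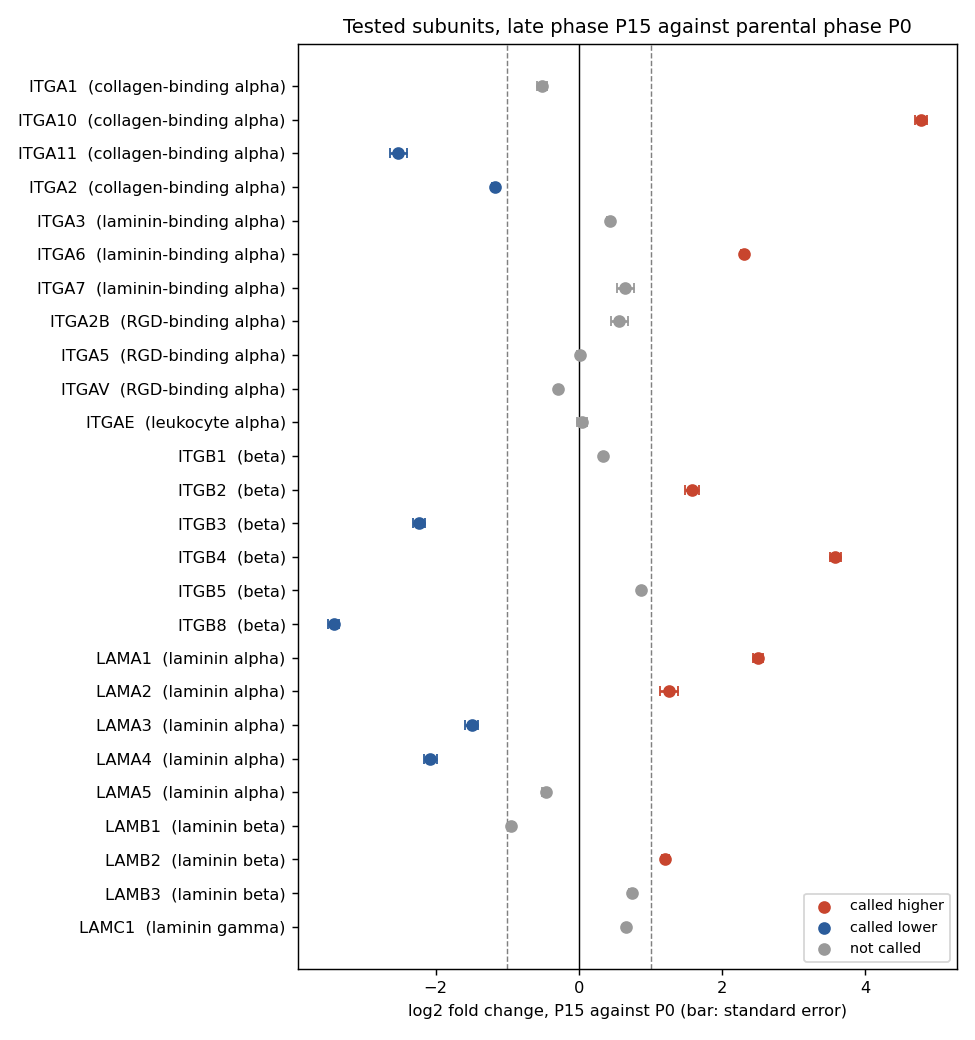
Log2 fold change of late phase P15 against parental phase P0 for the 26 tested subunits, ordered by class, with the standard error as bars and dashed lines at the 2-fold limits. Red points (7) were called higher and blue points (6) lower. The largest difference upward was that of ITGA10 and the largest downward was that of ITGB8, while the RGD-binding alpha subunits lay between the dashed lines.

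The collagen-binding alpha subunits, which pair with β1 and carry an inserted domain that docks on fibrillar or basement membrane collagens, moved in opposite directions. ITGA10, known from cartilage, had log2 levels of 1.63, 1.81, 1.47 and 1.45 in P0 and of 6.38, 6.30, 6.54 and 6.25 in P15. In between it was at 0.95, 1.10, 0.94 and 0.89 in P3 and at 0.96, 0.78, 0.83 and 0.84 in P7. The 4 libraries of P15 therefore stood far above all others, and the P3 and P7 libraries lay below those of P0. The late rise was 4.78 against P0 (SE 0.09, limma, adjusted p = 4.8e-24) and 5.51 against P7, and on the linear scale the mean went from 2.03 to 81.8 CPM. ITGA10 lies at chr1:145891208-145910111 (GRCh38, minus strand). A gene without a symbol on the opposite strand shares 1.96% of its exon length.

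Upstream sequence is shown for 4 members called in P15 against P0, ITGA10 and ITGA6, which rose, and ITGA11 and LAMA3, which fell. These 4 are a choice. ITGB8 and LAMA4 fell by more than LAMA3 and have windows that are not shown. The called members ITGB2, ITGB3, ITGB4 and LAMA1 have no window. The motifs of the 4 therefore do not compare members that rose with members that fell. The bases come from the RefSeq promoter windows on GRCh38.p14, which matched 26 of the 37 members, and they are the 250 bases before the start, 5′ to 3′ on the strand of the gene. Capitals mark matches on either strand to 5 motifs, each searched in all 27305 promoters of the same length. The AP-1 motif was searched as TGANTCA and was held by 6.6% of all promoters. For the GC box, searched as GGGCGG, the share was 42.3%. For the TATA box, searched as TATAAA, it was 11.1%. The TEAD letters were GGAATG, found in 11.9% of promoters. The E-box bound by SNAIL and ZEB factors was searched as CAGGTG and found in 17.5%. A match describes letters and is not evidence of binding.

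The ITGA10 window held 1 CpG, where the median over all promoters was 11, and 1 match to the TEAD letters. Shown are the 189 bases beyond the annotated exon, chr1:145910112-145910300 on the minus strand.
ITGA10: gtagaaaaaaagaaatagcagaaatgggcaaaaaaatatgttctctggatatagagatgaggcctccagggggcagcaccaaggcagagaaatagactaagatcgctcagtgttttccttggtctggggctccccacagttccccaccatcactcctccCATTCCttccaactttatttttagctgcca

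ITGA11, a fibroblast collagen receptor, went down, up and down again. Its log2 levels were 3.71, 4.05, 3.47 and 3.61 in P0 and 1.02, 1.38, 1.29 and 0.80 in P3. They returned to 3.78, 3.70, 3.57 and 3.74 in P7 and were 1.13, 1.30, 1.19 and 1.14 in P15. The P0 and P7 libraries overlapped each other, as did those of P3 and P15, and no library of one pair of phases reached the other pair. The steps were −2.59 from P0 to P3, +2.58 from P3 to P7 and −2.51 from P7 to P15 (SE 0.12 each, limma, adjusted p = 1.9e-15, 6.4e-15 and 4.5e-16), with −0.01 between P7 and P0 (adjusted p = 0.93). ITGA11 (chr15:68296532-68432163, minus strand) has no exon overlap with another annotated gene. Its window, chr15:68432164-68432413 on the minus strand, held 23 CpG and 1 E-box match.
ITGA11: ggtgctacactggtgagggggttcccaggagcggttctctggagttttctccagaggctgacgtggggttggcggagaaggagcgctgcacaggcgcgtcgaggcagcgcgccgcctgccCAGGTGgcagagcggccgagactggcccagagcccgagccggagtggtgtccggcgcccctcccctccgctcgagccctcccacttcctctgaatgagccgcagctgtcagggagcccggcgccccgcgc

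ITGA2, the α2 subunit of the collagen and laminin receptor of epithelial cells and platelets, was the most abundant collagen-binding subunit in the parental cells at 26.5 CPM per kb. Its log2 levels were 7.78, 7.67, 7.71 and 7.71 in P0 and 6.50, 6.52, 6.62 and 6.52 in P15. It stood higher in between, at 8.36, 8.23, 8.31 and 8.40 in P3 and at 8.35, 8.42, 8.32 and 8.40 in P7. The P15 libraries were the lowest of all 16, and those of P3 and P7 overlapped. ITGA2 fell by 1.18 from P0 to P15 (SE 0.04, limma, adjusted p = 2e-19) and fell by 1.83 from P7 to P15. ITGA1, which lies 30131 bases from ITGA2 on chromosome 5, passed the test in the same direction with smaller values (−0.52 against P0, mean levels 4.06 in P0 and 3.54 in P15). Per kb of exon, ITGA10 was at 13.1 ± 1.19 CPM and ITGA2 at 11.7 ± 0.45 CPM in P15 (SD, n = 4), where the parental values were 0.325 and 26.5 CPM. The fibroblast markers moved beside these genes, with a summed level of 5.13 to 5.26 CPM in P0 and 23.6 to 26.5 CPM in P15 that was mostly COL1A1 (2.59 and 4.64). DCN and LUM had means of at most 0.14 in every phase, and the part of such a shift in the collagen receptors was not tested.

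The laminin-binding alpha subunits pair with β1, or with β4 in the case of α6. ITGA6 had log2 levels of 7.13, 6.95, 7.08 and 7.01 in P0 and of 8.72, 8.74, 8.70 and 8.74 in P3. It was lower again at 7.87, 7.96, 7.89 and 7.96 in P7, and it reached 9.34, 9.33, 9.34 and 9.36 in P15. No phase overlapped any other. ITGA6 rose by 1.68 from P0 to P3, by 1.42 from P7 to P15 and by 2.30 over the whole course (SE 0.03 each, limma, adjusted p = 5.4e-22, 5.3e-22 and 3.7e-26), and it fell by 0.81 between P3 and P7. ITGA6 is at chr2:172427354-172506459 on the plus strand, and transcripts on the opposite strand share at most 2.61% of its exon length each. Its window, chr2:172427086-172427335, held 2 E-box matches and the only TATA box match of the 26 member promoters.
ITGA6: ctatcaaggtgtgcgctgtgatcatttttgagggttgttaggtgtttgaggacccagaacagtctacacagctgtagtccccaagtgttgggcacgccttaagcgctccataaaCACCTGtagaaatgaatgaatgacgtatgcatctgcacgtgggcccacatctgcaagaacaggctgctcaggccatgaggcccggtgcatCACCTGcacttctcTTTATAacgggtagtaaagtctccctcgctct

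ITGA3, which gives the α3β1 receptor for laminin-332 and laminin-511, was the most abundant integrin alpha transcript in every phase, at 116 CPM per kb in P0 and 156 CPM per kb in P15. Its levels moved within a narrow range (mean log2 levels 10.15, 10.47, 10.80 and 10.58 from P0 to P15), and each step passed the test without reaching 2-fold. ITGA7, the muscle laminin receptor subunit, was near the limit of the filter with means of 0.90 in P0 and 1.55 in P15, a rise of 0.65 (limma, adjusted p = 2.5e-05). It had 0.863, 0.917, 0.512 and 1.93 CPM from P0 to P15 and passed the filter through P15.

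The RGD-binding alpha subunits recognise an arginine-glycine-aspartate motif in fibronectin, vitronectin and related ligands. None of the 3 tested members was called in any comparison. ITGA5, the fibronectin receptor subunit, had levels of 7.17 ± 0.03 in P0 and 7.18 ± 0.06 in P15 (SD, n = 4), a difference within the spread, but stood at 7.84 ± 0.05 in P3 and 7.99 ± 0.06 in P7. The difference between P15 and P0 was 0.01 with an SE of 0.04 (limma, adjusted p = 0.75), and its sign changed when each library was shifted to the same median (−0.01). ITGAV, which pairs with several beta subunits, fell by 0.29 between P0 and P15. FN1, the fibronectin gene itself, went from 14.45 ± 0.11 to 6.90 ± 0.11 in the same comparison. ITGA2B, the platelet fibrinogen receptor subunit, was at 1.35 in P0 and 1.91 in P15, while the platelet markers PF4 and PPBP had means of at most 0.07 and GP1BA, the third marker of that list, had means of 0.76 to 0.96. The summed level of the 3 was 0.847 to 1.11 CPM in P0 and 0.778 to 1.1 CPM in P15, and its part in the ITGA2B values was not tested. ITGA8 was at most 0.14 in any library.

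**Figure D2:**
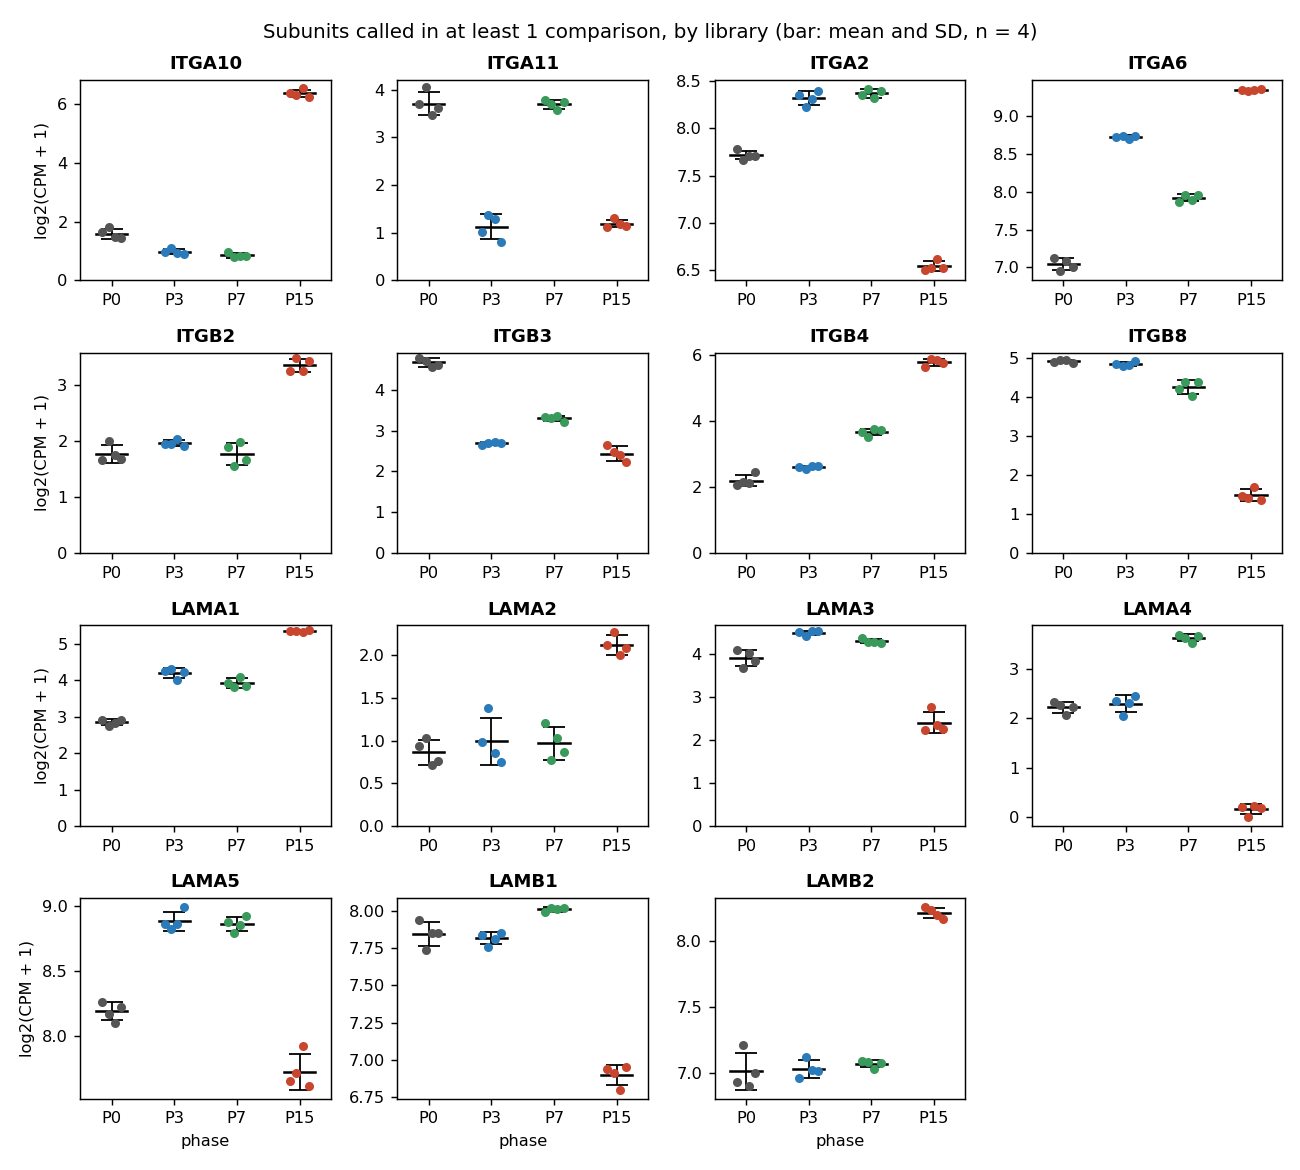
Log2(CPM + 1) levels in each library for the 15 subunits called in at least 1 comparison, one panel per gene, with points for the 4 libraries of each phase and bars for the mean and SD. Vertical axes differ between panels and do not all start at 0. ITGA6, ITGA10, ITGB2, ITGB4, LAMA1, LAMA2 and LAMB2 have their highest libraries in P15, and ITGA11 returns to its parental level in P7.

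Among the beta subunits, ITGB1 and ITGB5 carried most of the transcripts and ITGB4 rose most. ITGB4, the hemidesmosomal partner of α6 with its long cytoplasmic tail, had log2 levels of 2.05, 2.16, 2.13 and 2.45 in P0 and 2.6, 2.54, 2.65 and 2.63 in P3. It climbed further to 3.66, 3.53, 3.75 and 3.73 in P7 and to 5.65, 5.88, 5.84 and 5.75 in P15. Each phase lay above the one before it without overlap, which no other called subunit showed. The total rise was 3.58 (SE 0.08, limma, adjusted p = 1.3e-22), and the steps were 0.41, 1.06 and 2.11. In linear terms ITGB4 went from 3.61 to 54.1 CPM. The gene is at chr17:75721328-75757818 on the plus strand and shares no exon with another annotated gene.

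ITGB8 codes for the β8 subunit of αvβ8, which activates latent TGF-β. Its log2 levels were 4.88, 4.93, 4.95 and 4.86 in P0 and 4.85, 4.78, 4.82 and 4.91 in P3. They were 4.21, 4.39, 4.02 and 4.38 in P7 and 1.47, 1.4, 1.70 and 1.36 in P15. P0 and P3 overlapped, P7 lay below them and P15 lay far below all. ITGB8 fell by 3.42 between P0 and P15 (SE 0.08, limma, adjusted p = 3.2e-22), and in the last step alone it fell by 2.77. On the linear scale the mean was 29.0 CPM in P0 and 1.81 CPM in P15.

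ITGB3, the β3 subunit of the vitronectin receptor αvβ3, dropped early. It had log2 levels of 4.78, 4.71, 4.56 and 4.61 in P0 and of 2.64, 2.70, 2.73 and 2.70 in P3. In P7 it was at 3.34, 3.30, 3.35 and 3.20, and in P15 at 2.65, 2.47, 2.39 and 2.22. The parental libraries stood above the other 12, and those of P3 and P15 overlapped. ITGB3 fell by 1.97 in P3, by 1.37 in P7 and by 2.23 in P15, each against P0 (SE 0.08, limma, adjusted p = 1.8e-16, 2.6e-13 and 1.8e-18). A gene on the same strand shares 33.2% of the exon length of ITGB3, so its counts may not all be its own.

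ITGB2, the β2 subunit of leukocyte integrins, had log2 levels of 1.66, 2.00, 1.75 and 1.69 in P0 and of 3.25, 3.49, 3.26 and 3.43 in P15. In P3 (1.95, 1.95, 2.04 and 1.91) and P7 (1.90, 1.55, 1.98 and 1.67) it overlapped P0. ITGB2 rose by 1.58 in P15 against P0 (SE 0.10, limma, adjusted p = 1.8e-13). The 5 leukocyte markers summed to 0.128 to 0.306 CPM in P15 and to 6.22 to 8.56 CPM in P0, with PTPRC at a mean of at most 0.02. In P0 that sum was mostly CD14 (mean log2 levels of 2.955 in P0 and 0.08 in P15). The part of these markers in the ITGB2 values was not tested. None of the αL, αM, αX and αD partners of β2 reached 0.4 in a P15 library, and only ITGAX of these passed 1 in any library (1.16 to 1.47 in P3). ITGAE, the partner of β7, was at 4.24 in P0 and 4.28 in P15, while ITGB7 was at most 0.12 in any library. The other beta subunits of higher level passed the test without reaching 2-fold between P0 and P15, ITGB1 by 0.34 and ITGB5 by 0.87. ITGB6 was below the filter, with 0.88, 1.37, 1.21 and 1.48 in P0 and at most 0.36 in any later library.

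Expressed as shares of the integrin transcripts per kb, α6 and α10 gained between P0 and P15. Among the more abundant alpha subunits, α2, α3, α5 and αV lost. ITGA3 held 57.9% ± 0.7 of the alpha sum in P0 and 49.9% ± 0.5 in P15 (SD, n = 4). ITGA6 held 9.81% ± 0.46 in P0 and 31.1% ± 0.5 in P15, with 21.5% ± 0.1 in P3 and 11.5% ± 0.5 in P7 between them. ITGA2 went from 13.3% ± 0.3 to 3.74% ± 0.15, and ITGA10 from 0.163% ± 0.031 to 4.20% ± 0.38. ITGA5 went from 9.67% ± 0.3 to 6.25% ± 0.21, and ITGAV from 6.63% ± 0.092 to 3.46% ± 0.11. The alpha sum itself was 200 CPM per kb in P0 and 295, 315 and 312 CPM per kb in the later phases. On the beta side ITGB1 held between 70.2% and 83.0% in every phase, ITGB5 went from 17.1% ± 0.7 to 22.8% ± 0.5 between P0 and P15, and ITGB4 from 0.509% ± 0.086 to 5.52% ± 0.50. At 97.1 CPM per kb in P15, ITGA6 remained well above its partner ITGB4 at 7.99 CPM per kb. These are transcript shares that depend on the annotated exon lengths, which the SD does not cover. Protein or surface amounts were not measured by this assay.

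**Figure D3:**
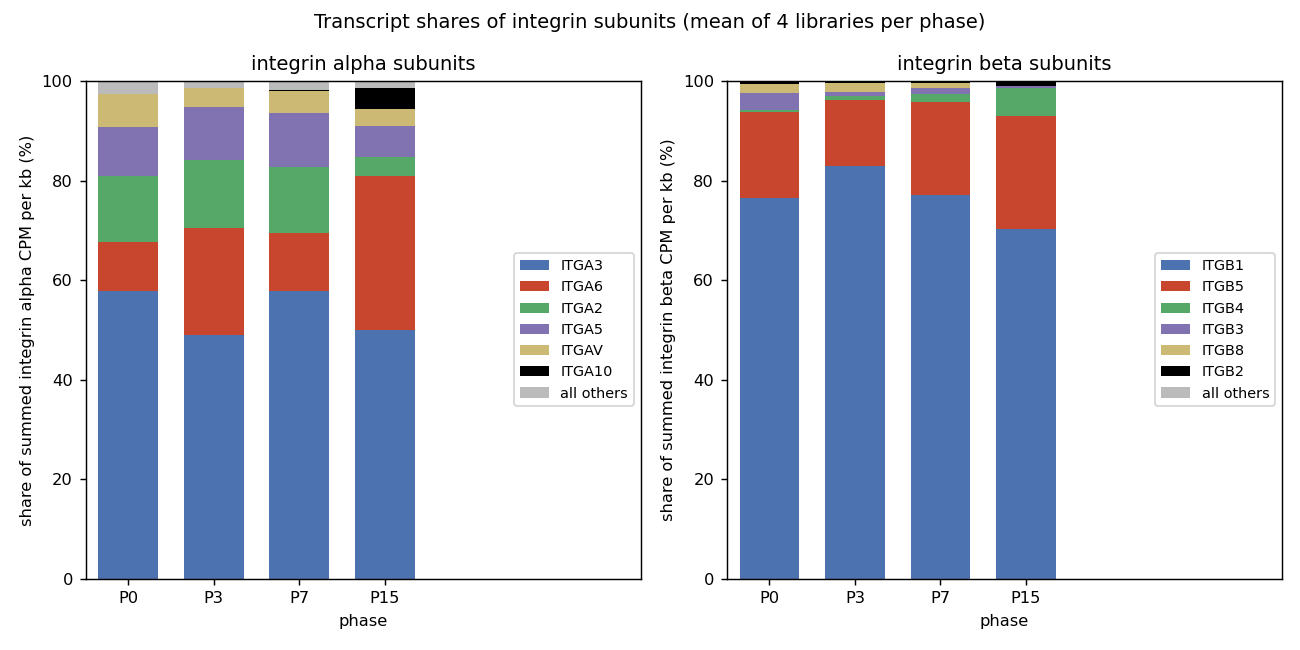
Share of each subunit in the summed CPM per kb of the integrin alpha (left) and beta (right) subunits, as stacked bars from 0 to 100% with the mean of 4 libraries per phase. ITGA6 (red, left) takes 9.81% in P0 and 31.1% in P15, and ITGB1 (blue, right) takes most of the beta sum in every phase.

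The laminin alpha chains carry the globular domains that integrins bind, and each of the 5 was called in P15 against P7, although LAMA2 was below 2-fold there with quantile normalization (0.95) and with a pseudocount of 5 CPM (0.48). LAMA1, the alpha chain of embryonic laminin-111, had log2 levels of 2.90, 2.74, 2.83 and 2.92 in P0 and of 4.26, 4.30, 4.01 and 4.23 in P3. It was at 3.93, 3.82, 4.10 and 3.85 in P7 and at 5.36, 5.35, 5.31 and 5.37 in P15. The P0 libraries were the lowest and the P15 libraries the highest, with overlap only between P3 and P7. LAMA1 rose by 1.35 from P0 to P3 and by 2.50 from P0 to P15 (SE 0.07, limma, adjusted p = 2e-14 and 1.3e-20). An opposite-strand transcript shares 10.3% of its exon length.

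LAMA3, the alpha chain of laminin-332, had log2 levels of 4.08, 3.66, 4.01 and 3.83 in P0 and of 4.5, 4.42, 4.53 and 4.52 in P3. It was at 4.36, 4.28, 4.28 and 4.26 in P7 and at 2.22, 2.76, 2.35 and 2.26 in P15. The P3 libraries were the highest and the P15 libraries the lowest. LAMA3 fell by 1.5 between P0 and P15 (SE 0.10, limma, adjusted p = 2.8e-13). The gene spans chr18:23689453-23956222 on the plus strand, and the RefSeq window, chr18:23872770-23873019, lies inside that span at an internal start. It held 2 AP-1 matches, 1 of them overlapping an E-box match, and 1 GC box, and it was the only one of the 26 member promoters with an AP-1 match.
LAMA3: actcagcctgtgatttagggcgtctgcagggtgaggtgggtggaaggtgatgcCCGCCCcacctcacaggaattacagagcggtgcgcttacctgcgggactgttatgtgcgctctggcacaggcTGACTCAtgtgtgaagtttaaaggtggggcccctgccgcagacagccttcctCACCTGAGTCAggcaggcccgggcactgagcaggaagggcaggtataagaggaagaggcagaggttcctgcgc

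LAMA4, the α4 chain known from vessels and mesenchyme, peaked in the intermediate phase. Its log2 levels were 2.33, 2.28, 2.07 and 2.23 in P0 and 2.36, 2.05, 2.32 and 2.46 in P3. They rose to 3.70, 3.63, 3.54 and 3.67 in P7 and were 0.20, 0.00, 0.22 and 0.18 in P15. P0 and P3 overlapped, P7 lay above them and P15 below them, with 1 of its libraries at 0. LAMA4 rose by 1.34 from P3 to P7 and fell by 3.48 from P7 to P15 (SE 0.09 each, limma, adjusted p = 1.4e-11 and 4.7e-21), and the P15 mean was 0.112 CPM against 3.69 CPM in P0.

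LAMA2, the merosin chain of muscle and nerve, was low throughout. Its log2 levels were 0.94, 1.03, 0.71 and 0.76 in P0 and 2.12, 2.27, 2.00 and 2.08 in P15. In P3 (0.98, 1.38, 0.85 and 0.75) and P7 (1.21, 0.77, 1.03 and 0.86) it overlapped P0, so that the P15 libraries alone stood apart. It rose by 1.26 between P0 and P15 (SE 0.12, limma, adjusted p = 1.4e-09). Its means were 0.823, 1.01, 0.969 and 3.35 CPM from P0 to P15. LAMA2 therefore passed the filter through P15, and its p-value is not separate support for the late rise. With a pseudocount of 5 CPM in place of 1, the differences of LAMA2 (0.52), ITGB2 (0.94) and LAMA4 (−0.77) in that comparison were below 2-fold.

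LAMA5, the alpha chain of laminin-511 and the main one in adult epithelia, had log2 levels of 8.26, 8.17, 8.10 and 8.22 in P0 and of 8.86, 8.82, 8.86 and 8.99 in P3. It was at 8.88, 8.79, 8.85 and 8.92 in P7 and at 7.65, 7.71, 7.92 and 7.61 in P15. P3 and P7 overlapped above P0, and P15 lay below it. Between P7 and P15 LAMA5 fell by 1.14 (SE 0.05, limma, adjusted p = 2.6e-16), while against P0 it fell by 0.47, which was under 2-fold.

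LAMB3 and LAMC1 were more abundant per kb than any alpha chain in every phase. LAMB2, a beta chain of mature basement membranes, had log2 levels of 6.93, 7.21, 6.90 and 7.00 in P0 and of 8.26, 8.24, 8.20 and 8.17 in P15. It overlapped P0 in P3 (6.96, 7.12, 7.02 and 7.01) and in P7 (7.09, 7.08, 7.03 and 7.07). The late rise was 1.21 (SE 0.05, limma, adjusted p = 2.3e-17). LAMB1, the beta chain of laminin-111 and laminin-511, had log2 levels of 7.94, 7.74, 7.85 and 7.85 in P0 and of 6.94, 6.91, 6.80 and 6.95 in P15. In P3 (7.84, 7.76, 7.81 and 7.85) it overlapped P0, and in P7 (7.99, 8.02, 8.01 and 8.02) it was above both. LAMB1 fell by 1.11 from P7 to P15 (SE 0.04, limma, adjusted p = 9.2e-19) and by 0.95 from P0 to P15. The β1 and β2 chains thus moved in opposite directions in the last step.

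LAMB3, the β3 chain of laminin-332, was far above LAMA3. It had mean log2 levels between 9.56 ± 0.03 (P0) and 10.30 ± 0.09 (P15) and was called in no comparison. Per kb of exon, LAMA3 stood at 0.964 CPM in P0 and 0.299 CPM in P15, where LAMB3 stood at 162 and 271 CPM. LAMA5 held 92.3% ± 0.6 of the laminin alpha sum in P0 and 83.3% ± 1.5 in P15, with LAMA1 at 1.78% ± 0.09 and 14.2% ± 1.3 (SD, n = 4). The alpha sum was 22.0 CPM per kb for P0, then 35.9, 35.6 and 17.7. The beta sum in the same order was 193, 226, 205 and 321 CPM per kb, of which LAMB3 held between 83.8% and 86.3%. LAMC1, the gamma chain of most laminins, stood at 42.6 CPM per kb in P0 and 67.4 in P15 and passed the test upward by 0.66. LAMC3, a gamma chain, was below the filter, with 1.21, 1.15, 0.88 and 1.25 in P15 and at most 0.08 in any other library. LAMB4 was at 0 in all libraries but 1.

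**Figure D4:**
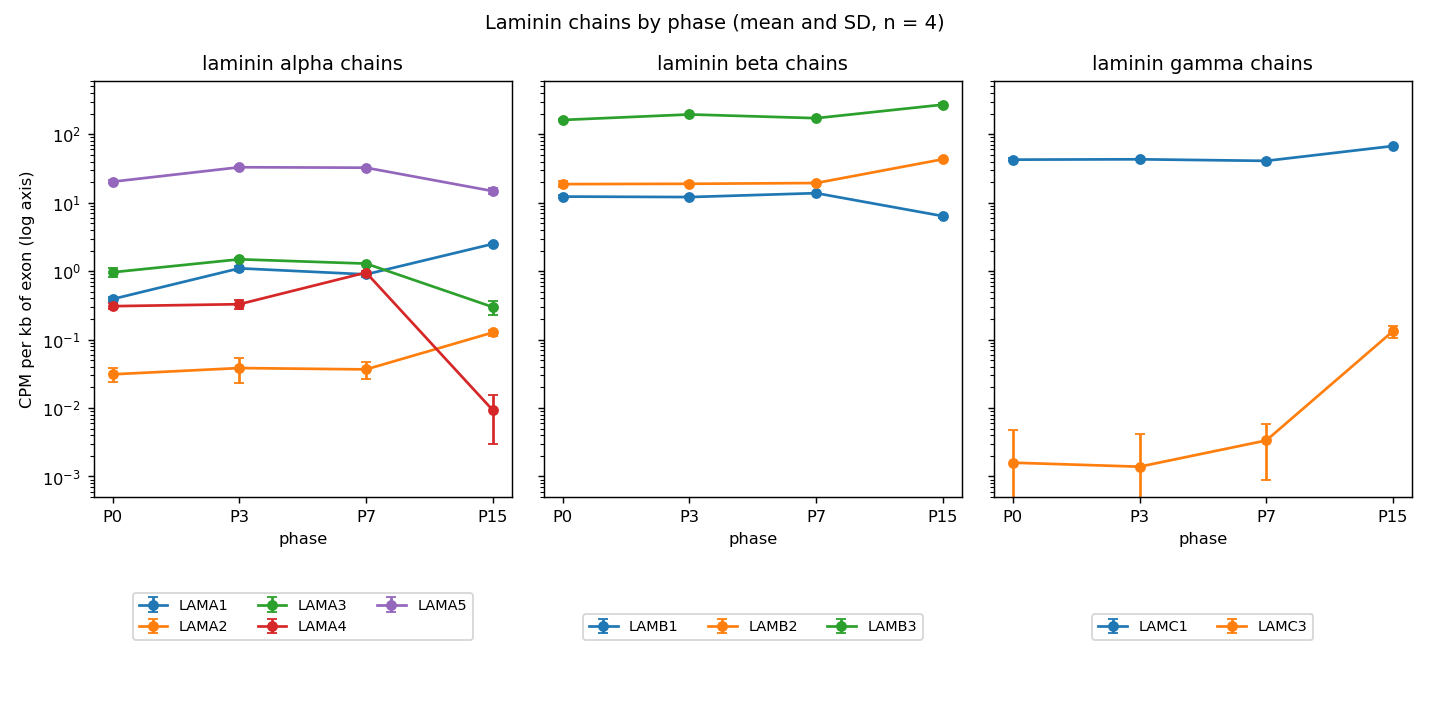
Level of the laminin chains named in the legends in CPM per kb of exon on a log axis, by phase, with the mean and SD of 4 libraries. The lower bars of LAMC3 in P0 and P3 run off the axis because their SD exceeds the mean. LAMA4 falls below the other alpha chains in P15, and LAMB3 is the highest chain shown in every phase.

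The comparisons of the earlier phases held fewer calls. In early phase P3 against P0, 4 of the 26 tested subunits were called beside 4.46% of all tested genes, with ITGA6 and LAMA1 higher (1.95% of all genes) and ITGA11 and ITGB3 lower (2.51%). By the adjusted p-value alone, 9 rose and 6 fell in that comparison, beside 31.4% and 37.3% (68.7% in either direction). In intermediate phase P7 against P0 it was 4 beside 3.37%, with ITGB4, LAMA1 and LAMA4 higher (1.86%) and ITGB3 lower (1.52%). Here 15 rose and 4 fell by the adjusted p-value alone, beside 27.9% and 34.2% (62.1% in either direction). Both of these comparisons and the late one use the same P0 libraries. From P3 to P7, 3 were called beside 1.83%, namely ITGA11, ITGB4 and LAMA4, each higher (0.989% of all genes were higher and 0.845% lower). Of these, ITGB4 was below 2-fold with quantile normalization (0.98), and ITGB4 and LAMA4 were so with a pseudocount of 5 CPM (0.73 and 0.88). The adjusted p-value alone passed 11 upward and 6 downward, beside 30.3% and 28.0% (58.2% in either direction). From P7 to P15, 14 were called beside 25.5% of all tested genes, 7 in each direction (13.4% of all genes higher and 12.1% lower), and with quantile normalization of the libraries 15 were called, of which 6 were higher and 9 lower. By the adjusted p-value alone all 26 tested subunits passed in that last step, 13 upward and 13 downward, beside 46.3% and 40.1% of all genes (86.4% in either direction). Over the 5 comparisons, 15 tested subunits were called at least 1 time and 11 were not.

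**Figure D5:**
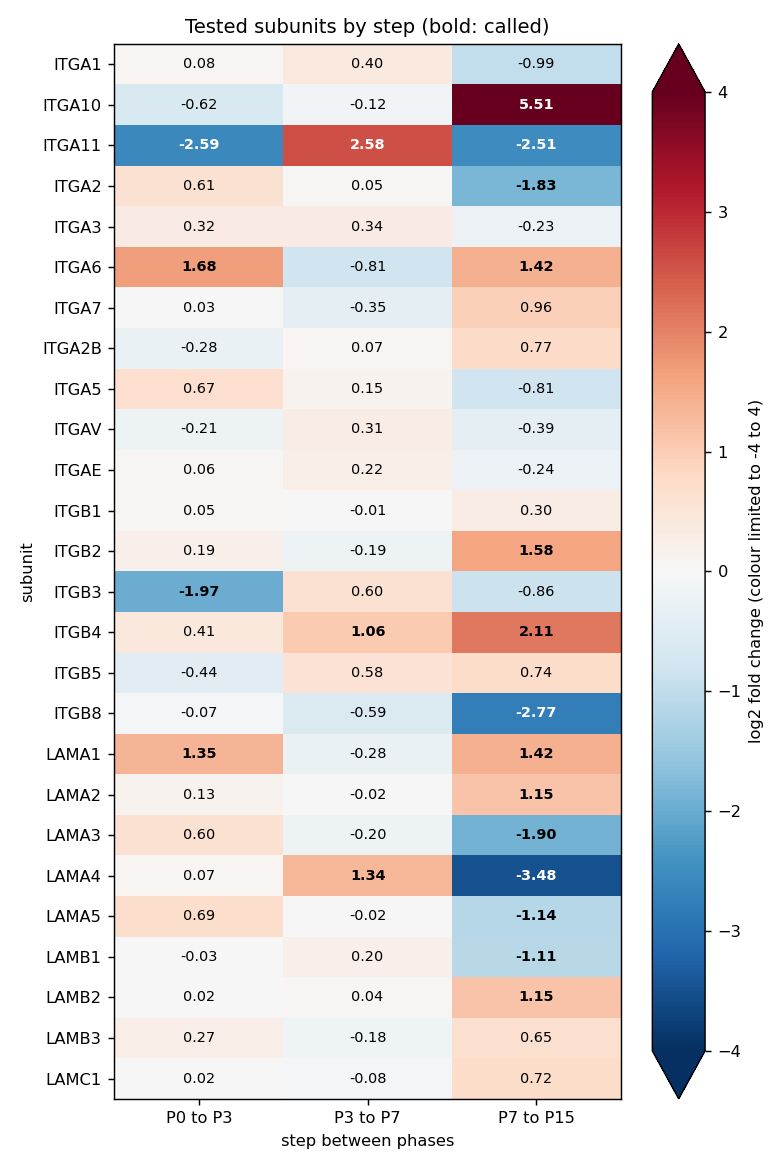
Log2 fold change of the 26 tested subunits in the steps from P0 to P3, P3 to P7 and P7 to P15, as a coloured grid with the value in each cell, red for higher and blue for lower, the colour limited to −4 to 4. Bold values were called. Most bold cells stand in the last column (14), and ITGA11 changes sign at each step.

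In 13 of the 26 tested subunits all 4 P15 libraries lay above the 12 others, beside 34.1% of all tested genes, and in 7 all lay below, beside 29.3%. The P7 libraries lay above all others for ITGA1, ITGA3, ITGAV, LAMA4 and LAMB1, 5 members beside 6.48% of all genes, and below all others for none, beside 5.4%. For P3 the member above all others was LAMA3, beside 8.98%, and ITGB5 was below, beside 9.61%. In P0 ITGB3 was above all others, beside 9.0%, and ITGA3, ITGA6, ITGB4, LAMA1 and LAMB3 were below, beside 7.02%.

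Genes that work with these subunits were taken from lists and counted in P15 against P0. Among the cytoplasmic adhesion complex, 4 of 30 tested genes were called higher and 9 lower, with a median of −0.31 beside 0.04 over all tested genes. The shares of all tested genes called in that comparison, 12.1% higher and 11.4% lower, stand beside this and each of the following lists. TLN2, a talin that activates integrins by binding beta tails, rose by 3.11, and KANK1 and KANK2, which bind talin and organise the cortex around adhesions, fell by 2.72 and 2.59 (limma, adjusted p = 3.9e-20, 2.1e-22 and 1.4e-25). TLN1, the other talin of the list, passed the test downward without reaching 2-fold (−0.885). Its mean log2 levels were 9.62 in P0 and 8.735 in P15, and those of TLN2 were 1.172 and 4.282. None of the 4 tested hemidesmosome genes was called, although ITGB4 rose. COL17A1, the hemidesmosomal collagen, passed the test upward by 0.43, PLEC and DST, the plakins that tie β4 to keratin, passed it downward by 0.20 and 0.37, and the basal keratins KRT5 and KRT14 were below the filter. The summed epithelial markers were lower in P15, as given above, and their part in these values was not tested.

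Among the other basement membrane genes 1 of 10 tested was called higher and 1 lower, with COL4A4 higher by 1.11 and COL4A6 lower by 2.75, both collagen IV chains. Of 8 other laminin receptors 2 were called higher and 1 lower. BCAM, an immunoglobulin-family receptor for laminin α5, rose by 1.93 while LAMA5 fell, SGCE (a sarcoglycan) rose by 1.36 and SDC4 (a syndecan) fell by 1.13 (limma, adjusted p = 1.4e-16, 2.8e-18 and 2e-21). Of 16 tested integrin ligands outside the laminins 6 were called higher and 6 lower. FN1 fell by 7.55 and NPNT, a basement membrane ligand of α8β1, rose by 5.42 (SE 0.06 and 0.10, limma, adjusted p = 3.9e-32 and 3.1e-24), while its receptor subunit ITGA8 was at most 0.14 in any library. The mean levels of NPNT were 0.23, 0.068, 0.35 and 5.65 from P0 to P15. COL3A1, a fibrillar collagen, had a level of 4.51 ± 0.08 in P15, while each P0 library listed it at 0. Its mean was 0.44 in P3, with an SD of 0.781 that exceeds it, and 0.018 in P7. NPNT and COL3A1 are among the 6 called higher, and both passed the filter only through P15.

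Genes within 200 kb of the called subunits were compared with them in P15 against P0. ITGB8 and LAMA1 had no tested neighbour within that distance. Beside the counts that follow stand the 23.6% of all tested genes called, 12.1% higher and 11.4% lower. ITGA10 had 11 tested neighbours, whose log2 fold changes ran from −4.08 to 2.68 with a median of −0.05. Of these 4 were called, with NUDT17, ANKRD34A and POLR3GL higher and TXNIP lower. ITGB4 had 14, of which 2 were called, 1 in each direction. ITGB2, which rose, had 9, of which 3 were called, each lower. Of the 4 neighbours of ITGA11 1 was called lower, and of the 4 of LAMA3 1 was called higher. LAMB2 had 12, of which 1 was called higher. The tested neighbours of ITGA6, ITGB3 and LAMA2 held no call. The 2 tested neighbours of LAMA4 were called higher (1.04 and 2.04), the opposite of LAMA4 itself. The 3 tested neighbours of ITGA2 all had negative values like ITGA2 itself (MOCS2 −0.78, PELO −0.57 and ITGA1 −0.52), and none reached 2-fold.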

How the data were processed

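RNA of 16 libraries was sequenced with paired-end reads. The authors aligned them to GRCh38 with STAR (version 2.6.1a in the submitters' processing notes), counted them on genes with featureCounts and converted counts to CPM. They deposited log2 values of CPM plus 1 with 2 decimals for 39007 genes. A quantile normalization and a median centring named in the methods are not present in these values. The strand setting, annotation release and handling of multi-mapping reads are not given in the sources used here, so overlapping and antisense genes cannot be told apart. Depth was estimated from the lowest values.

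Phases come from the labels and replicate numbers from the descriptions. The 13249 genes with a mean above 1 CPM were fitted with limma 3.58.1 in R 4.3.3 (1 coefficient per phase, variance trend, Benjamini-Hochberg adjustment), and the procedure was tested on simulated data. Tables used Python 3.11.15, numpy 2.4.6 and pandas 2.3.3, and figures matplotlib 3.10.9. Gene coordinates and exon lengths are those of GENCODE 44 on GRCh38, and promoters those of RefSeq on GRCh38.p14. Each member counted is reported, with every library for those called. From each list (adhesion complex, hemidesmosome, basement membrane, other laminin receptors, other integrin ligands) the 3 called genes of largest change in P15 against P0 are named, with FN1, TLN1 and the hemidesmosome genes also placed beside related genes. Of the genes, 1 that the member rule takes, 1 gene of a list and 1 marker gene are not reported here, and the counts leave them out. Members, lists and tests were chosen with earlier results of these data known. Alternatives changed the filter, the pseudocount (0.1 and 5 CPM), the fold threshold, the variance trend and the normalization (quantile or equal medians), added a replicate block, fitted 2 phases at a time or left out 1 library.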

Additional observations from a re-analysis of the deposited data

Results flagged for a closer look

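For each tested subunit and phase the highest and the lowest of the 4 libraries was compared with its neighbour, and 5 of 104 such groups held a library far from the rest, where chance flags about 1 in 20 groups (5.2 of 104). The gap divided by the range of the group was 1.00 for ITGB1 in P3 (replicate 3, 10.26 against 10.24 in each of the others) and 0.86 for ITGB1 in P7 (replicate 2, higher at 10.28). It was 0.90 for ITGA3 in P7 (replicate 2, lower at 10.73 beside a median of 10.83), 0.83 for ITGA2 in P15 (replicate 3, higher at 6.62) and 0.83 for LAMB3 in P0 (replicate 4, higher at 9.60). These 5 involve 4 libraries, and each library lay within 0.10 log2 units of the median of the other 3.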

How the results depend on the processing

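Without the fold threshold the counts of called subunits were 15 for P3 against P0, 19 for P7 against P0, 24 for P15 against P0, 17 for P7 against P3 and 26 for P15 against P7, in place of 4, 4, 13, 3 and 14. A pseudocount of 5 CPM gave 1 for P7 against P0, where LAMA1, LAMA4 and ITGB4 were no longer 2-fold, 1 for P7 against P3, 10 for P15 against P0 and 12 for P15 against P7. In P3 against P0 it left LAMA1 at 0.999, just under 2-fold. Requiring more than 1 CPM in all 16 libraries left 20 members tested in place of 26. Of these 20, 1 was called for P7 against P3, since ITGA11 and LAMA4 were then not tested. The counts were 9 for P15 against P0 and 10 for P15 against P7, where ITGA10 and LAMA2 were not tested either. Shares of all genes called are not given for the changed pseudocount and filter. The selection of the methods (mean above 1 CPM and SD above 1) took 5 members (ITGA10, ITGA11, ITGB4, ITGB8 and LAMA4) with the SD of log2 values and 24 with the SD of linear CPM. Leaving out each library in turn gave 4 to 4, 4 to 4, 13 to 13, 3 to 3 and 14 to 16 in the order above, with ITGA1 and ITGA7 gained near 2-fold in the last. Without filter, limma also called LAMC3 (1.10) and ITGB6 (−1.09) in P15 against P0.

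Replicate numbers were not used as pairs, and what they mark is not known. The values that follow cannot exclude a shared origin of same-numbered libraries. Deviations of same-numbered libraries from their phase means correlated at −0.15 to 0.22, the paper names no pairing, and a replicate block on either numbering left the counts at 4, 4, 13, 3 and 14. Without the 2 libraries whose number on the sequencing sheet lies apart from their phase (P15 replicate 1 and P3 replicate 2, chosen after seeing the data), 15 were called in P15 against P7 and the other counts did not move.

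Of 3610 single-gene values under 28 alternatives, 3527 kept their direction and their side of an adjusted p-value of 0.05. Calls that also need a 2-fold difference were lost in 13 of these values, with a pseudocount of 5 CPM or quantile normalization, and gained in 15. The 26 that changed sign were all small. With quantile normalization they were LAMB2 (−0.022) and LAMC1 (−0.045) in P3 against P0, ITGA11 (0.024) and ITGB1 (−0.035) in P7 against P0, ITGAE (−0.019) in P15 against P0 and LAMA5 (0.015) in P7 against P3. With the median shift they were ITGA11 (0.005) in P7 against P0 and ITGA5 (−0.01) in P15 against P0. Over the fits that leave out 1 library, the ranges that cross 0 were −0.065 to 0.002 for LAMB1, −0.019 to 0.084 for LAMB2, −0.018 to 0.046 for LAMC1 and −0.067 to 0.089 for ITGA7 in P3 against P0. They were −0.093 to 0.101 for ITGA11 in P7 against P0, and −0.015 to 0.032 for ITGA5 and −0.013 to 0.077 for ITGAE in P15 against P0. In P7 against P3 they were −0.043 to 0.013 for LAMA5, −0.103 to 0.108 for LAMA2 and −0.013 to 0.154 for ITGA2B. Without the 2 libraries named above, LAMB2 was −0.013 in P3 against P0 and LAMA2 was 0.108 in P7 against P3. The cause was not tested. Depth limits LAMA4 in P15 and the members below the filter, where a few counts make up the value.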

Other observations

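The following values of P15 against P0 (limma, all called) concern list genes that were chosen after their values were seen. The tensins, which link beta integrin tails to actin, differed among themselves, with TNS4 higher by 2.46 and TNS3 and TNS2 lower by values of −2.29 and −1.64. PARVA, a partner of the integrin-linked kinase, fell by 1.97, and the scaffold BCAR1 and the kinase PTK2B fell by 1.39 and 1.44. CIB1, which was first found on the αIIb tail, rose by 1.62 (SE 0.03).

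Among the ligands, the RGD proteins EDIL3, THBS2 and FBN1 fell by 3.33, 3.25 and 3.23. The matricellular ligands CYR61 and CTGF rose by 2.21 and 1.51, and they also stood high in P3 (10.05 ± 0.06 and 7.13 ± 0.14, against 8.20 ± 0.11 and 4.71 ± 0.16 in P0, SD, n = 4). The latent TGF-β binding proteins, whose partners carry the RGD site that αv integrins bind, moved apart, with LTBP1 higher by 1.29 and LTBP3 lower by a value of −2.55, in the comparison in which ITGB8 fell.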
